A study of Mus musculus with 16 samples.

Results

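Gabra2, Nnt, Entpd4, Wdfy1, Ide, Fgfbp3, Erich5 and Tmem181b-ps, all of them genes discussed for sequence or copy differences between C57BL/6 mouse stocks or for unequal levels between the mice compared here, were described library by library in mouse somatosensory cortex. They were taken by gene name, 8 of 24421 genes in the deposited tables, and were chosen by the levels and genotype differences already seen in the same libraries. Their genotype differences are therefore given as a description, with no test. The question put to them was whether wild-type (WT) mice and mice without AcPb differ at genes that vary between C57BL/6 stocks.

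Somatosensory cortex RNA was sequenced from WT C57BL/6 mice, male C57/BL6J in the methods of the study, and from AcPb-/- mice, which lack the brain isoform of the interleukin 1 receptor accessory protein encoded by Il1rap. Per the labels, both lines came from Jackson, were bred in-house for 5 to 7 generations, and homozygous offspring were used at 2 to 3 months of age. Control mice slept undisturbed, sleep disruption (SD) ran from ZT20 to ZT4 (8 h), and all brains were collected at ZT4. Each of the 4 groups had 3 libraries with a column in the tables: WT control replicates 01, 02 and 03, WT SD 01, 02 and 04, AcPb-/- control 03, 04 and 05, and AcPb-/- SD 02, 03 and 04. The other 4 labelled samples were not analysed here. No source used here says that the AcPb-/- line is on that substrain or that the lines were bred as littermates, so a stock difference and the AcPb deletion cannot be told apart between genotypes.

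C57BL/6 mice are kept as several long-separated stocks that differ at a limited number of places in the genome. The C57BL/6J stock carries a small intronic deletion beside a splice site of Gabra2 that lowers its expression, and a deletion of several exons in Nnt, while Ide and Fgfbp3 lie in a segment that is duplicated in part of the C57BL/6J stock. The mouse reference genome is itself C57BL/6J. Bulk RNA levels reflect both how many cells express a gene and how much RNA each holds, and fewer cells of a type and less RNA per cell cannot be told apart in these samples.

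Total reads on genes ranged from 26504840 to 41615582 in control libraries and from 58770286 to 71857505 after SD. Neuronal, astrocyte, oligodendrocyte, microglial and endothelial markers were all read in each group, and 4 of 4 red blood cell markers were at 0 in every library. Whether those zeros reflect the tissue or the way reads were counted was not tested, so they do not show an absence of blood. Summed choroid plexus markers reached 17381 normalized counts in AcPb-/- SD replicate 04 against at most 482.7 in every other library. The mice were labelled male, yet 4 control libraries, WT 02 and 03 and AcPb-/- 04 and 05, held 25352 to 39358 Xist reads and 0 to 2 reads of Y-linked genes, while the other 8 held 5 to 13 Xist reads. Il1rap itself did not mark the genotype: in controls it averaged 1497 ± 21.9 (SD, n = 3) normalized counts in WT and 1583 ± 66.1 in AcPb-/- mice (log2 difference 0.08, limma adjusted p = 0.718). A count over the whole gene adds all its isoforms, so it does not check for the loss of one.

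Some of the members share sequence with other genes, so that their reads could be split or discarded in counting. Positions are on GRCm38 in the GENCODE annotation, and sharing was counted over all 100-base stretches of a gene's annotated transcripts. Entpd4 (chr14:69337174-69367270, plus strand) had 100% of its stretches also in Entpd4b, a copy 188.154 kb further along the same chromosome that was not analysed here, so its counts are uncertain. One stretch in exon 3 of an Entpd4 transcript, shown because both copies hold it letter for letter (chr14:69349073-69349172 and, in Entpd4b, chr14:69567323-69567422), reads as follows.
Entpd4: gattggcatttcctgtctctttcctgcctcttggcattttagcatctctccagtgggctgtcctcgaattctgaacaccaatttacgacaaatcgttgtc
Tmem181b-ps (chr17:6438524-6467022, minus strand), a transcribed pseudogene, had 33.3% of its stretches in another gene, most of them in Tmem181a (29.6%). A stretch of its first exon (chr17:6466923-6467022) is set below against the matching stretch of Tmem181a (chr17:6280598-6280697), with the 3 letters at which they differ in capitals.
Tmem181a: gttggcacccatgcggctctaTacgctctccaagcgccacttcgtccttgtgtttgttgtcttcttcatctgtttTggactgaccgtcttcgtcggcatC
Tmem181b-ps: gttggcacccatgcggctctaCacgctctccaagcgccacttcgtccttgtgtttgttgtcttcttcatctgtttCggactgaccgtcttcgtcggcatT
Wdfy1 (chr1:79702262-79776143, minus strand), overlaps 126 exon bases of Mrpl44 on the other strand, and 0.472% of its stretches were shared. Gabra2 (chr5:70957597-71095849, minus strand) shared 0.139% of its stretches, and Nnt (chr13:119335448-119408997, minus strand), Ide (chr19:37268743-37337852, minus strand), Fgfbp3 (chr19:36917550-36919615, minus strand) and Erich5 (chr15:34453305-34473892, plus strand) shared 0.

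Gabra2 encodes the alpha2 subunit of the GABA-A receptor, a chloride channel through which GABA inhibits neurons. Its normalized counts, scaled over all 12 libraries, were 1951, 1828 and 1819 in WT control replicates 01, 02 and 03 and 3753, 4525 and 3152 in AcPb-/- control replicates 03, 04 and 05. After SD they were 2120, 1899 and 2623 in WT replicates 01, 02 and 04 and 3919, 3013 and 3324 in AcPb-/- replicates 02, 03 and 04. Every AcPb-/- library was above every WT library. The log2 difference, AcPb-/- over WT on the log2(normalized count + 1) scale, was 1.01 ± 0.11 (SE) in controls and 0.63 ± 0.13 after SD. Over all genes, 0.191% were higher in all 6 AcPb-/- than in all 6 WT libraries (40 of 20978), a share that includes the members chosen for it.

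**Figure D1:**
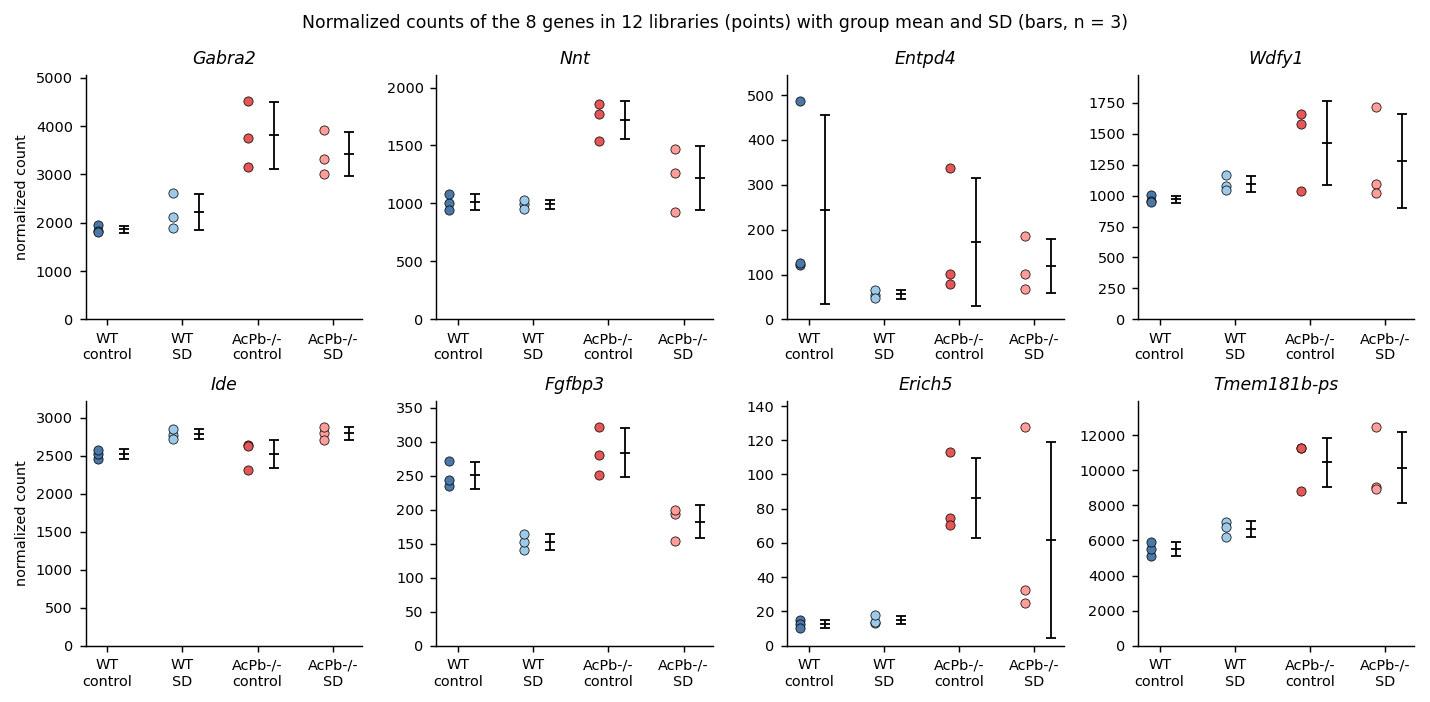
Normalized counts (vertical axis, starting at 0) of the 8 genes in the 12 libraries, by genotype and condition on the horizontal axis; points are libraries and bars are the mean and SD of 3. Gabra2, Erich5 and Tmem181b-ps lie higher in each of the 6 AcPb-/- libraries than in any WT library, whereas Ide overlaps between genotypes.

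Erich5, a glutamate-rich protein of little-known function, had the largest genotype difference among the 8 members. Its normalized counts were 15.2, 12.7 and 10.1 in WT controls and 13.5, 14.1 and 17.8 in WT after SD, from 9 to 24 reads per library. In AcPb-/- mice they were 74.4, 113.0 and 70.8 in controls, then 24.8, 32.7 and 127.7 after SD, covering 32 to 180 reads. All AcPb-/- libraries were above all WT libraries, but after SD the highest was 5.15 times the lowest. The log2 difference was 2.62 ± 0.28 in controls and 1.60 ± 0.52 after SD, and low counts limit the precision of both. The highest library, SD replicate 04, was the one with choroid plexus markers, whose part in the value was not tested. Without it the log2 difference after SD was 0.89.

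Tmem181b-ps was the most heavily read member. It had 5137, 5521 and 5901 normalized counts in WT controls and 7051, 6180 and 6737 in WT after SD. In AcPb-/- mice it had 8824, 11267 and 11263 in controls and 9048, 12461 and 8941 after SD. No WT library reached any AcPb-/- library, with log2 differences of 0.91 ± 0.10 in controls and 0.59 ± 0.12 after SD. Tmem181a, with which it shares sequence, averaged 1551 ± 10.7 in WT controls and 1742 ± 54.1 in AcPb-/- controls (log2 difference 0.17, adjusted p = 0.456).

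Nnt encodes the mitochondrial transhydrogenase, which makes NADPH from NADH. It had 1003, 946.5 and 1082 normalized counts in WT controls and 998.1, 949.4 and 1031 in WT after SD, a range of 1.14 times over 6 libraries. In AcPb-/- mice it had 1770, 1858 and 1542 in controls and 928.4, 1468 and 1265 after SD. Of the 6 AcPb-/- libraries, 5 were above all WT libraries and the remaining one, SD replicate 02, was below all of them. The log2 difference was accordingly 0.77 ± 0.08 in controls and 0.27 ± 0.14 after SD, where the genotypes overlapped. After SD it was 0.46 without AcPb-/- SD replicate 02 and 0.13 without AcPb-/- SD replicate 03.

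Wdfy1 encodes an endosomal protein with a FYVE domain and WD repeats that takes part in Toll-like receptor 3 signaling. It had 1005, 953.6 and 948.8 normalized counts in WT controls and 1075, 1042 and 1164 in WT after SD. In AcPb-/- mice it had 1038, 1662 and 1582 in controls and 1092, 1713 and 1023 after SD. The AcPb-/- libraries thus lay at 2 levels: control replicates 04 and 05 and SD replicate 03 were at 1582 to 1713, and the other 3, at 1023 to 1092, lay within the WT range. The log2 difference was 0.53 ± 0.15 in controls and 0.18 ± 0.17 after SD, and the latter was -0.05 without SD replicate 03. Of the high libraries, 2 held Xist and SD replicate 03 did not, and WT controls 02 and 03, which also held Xist, were not high. With the 4 Xist libraries left out, the log2 difference in controls was 0.05, from 1 library of each genotype.

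The same 3 libraries were also the highest AcPb-/- libraries for Tmem181b-ps, at 11263 to 12461 against 8824 to 9048 in the other 3. These 3 were the highest of the 6 AcPb-/- libraries for 4.51% of genes with a mean of at least 100 normalized counts (592 of 13121), and they exceeded every WT library as well for 0.488% (64 genes). The gene whose pattern over the 12 libraries was closest to Wdfy1 was Cdk5rap1, on chromosome 2, a tRNA-modifying enzyme, with a root mean square difference of 0.15 on the log2 scale after centring, against a median of 0.47 over 1833 candidates. Cdk5rap1 had 619.8, 529.2 and 493.4 normalized counts in those 3 libraries, 353.5 to 401.9 in the other AcPb-/- libraries and 288.0 to 385.8 in WT. Spata9, on chromosome 13, came next, at 0.23, with 180.1, 169.8 and 130.9 against 71.8 to 94.4 and 70.4 to 97.2. Being chosen for likeness, neither gene adds evidence for the grouping.

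**Figure D2:**
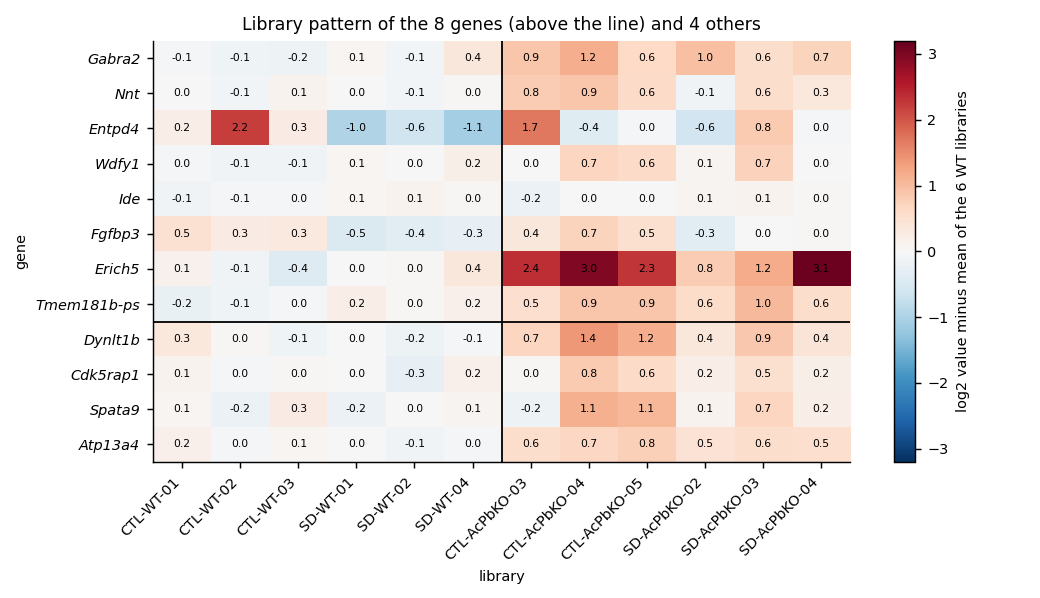
Log2(normalized count + 1) of each gene (rows) in each library (columns) minus its mean over the 6 WT libraries, as color and number; the 8 members stand above the horizontal line and WT libraries left of the vertical line. Gabra2, Erich5 and Tmem181b-ps are raised in all 6 AcPb-/- libraries, Wdfy1 in 3, and Nnt in all but SD replicate 02.

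Atp13a4, a P-type ATPase gene on chromosome 16, was among the 2 closest genes for Gabra2, Nnt and Tmem181b-ps, at differences of 0.26, 0.21 and 0.21. It lay at 869.6 to 1087 normalized counts in the 6 AcPb-/- libraries and 586.7 to 707.6 in the 6 WT libraries. Being chosen for likeness, Atp13a4 adds no evidence for a difference between genotypes. Il1rap also lies on chromosome 16, and the part of the deleted locus in the values of Atp13a4 was not tested. Under the stricter limit on spread, Cd44 and Angpt1 were closest to Erich5 at 0.92 and 0.93, and Ppp1r14a to Entpd4 at 0.69, which are loose matches.

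Entpd4, a nucleotide-hydrolysing enzyme of the Golgi and lysosome, varied more within groups than between genotypes in controls. It had 120.3, 487.3 and 125.2 normalized counts in WT controls and 336.6, 79.5 and 100.5 in AcPb-/- controls, and 1 library of each genotype, WT 02 and AcPb-/- 03, stood well above the rest of its group. After SD it had 53.2, 66.4 and 48.1 in WT and 68.1, 185.8 and 102.2 in AcPb-/- mice, which did not overlap by a narrow margin of 66.4 to 68.1. The log2 difference was -0.48 ± 0.61 in controls and 0.97 ± 0.32 after SD. In controls its sign turned without WT control 02 (0.18) and without the 4 Xist libraries (1.48), and after SD it was 0.58 without AcPb-/- SD 03.

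Ide, the insulin-degrading enzyme, which also cleaves amyloid beta, did not separate the genotypes. It had 2460, 2527 and 2584 normalized counts in WT controls and 2312, 2645 and 2626 in AcPb-/- controls. After SD it had 2776, 2856 and 2729 in WT and 2798, 2880 and 2716 in AcPb-/- mice. The log2 difference was -0.00081 ± 0.06 in controls and 0.0050 ± 0.06 after SD.

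Fgfbp3, which encodes a secreted protein that binds fibroblast growth factors and lies 349.128 kb from Ide, also overlapped between genotypes. It had 272.2, 235.2 and 243.6 normalized counts in WT controls and 250.5, 321.4 and 280.2 in AcPb-/- controls. After SD it had 140.9, 152.7 and 163.7 in WT and 154.1, 193.0 and 199.4 in AcPb-/- mice. The log2 difference was 0.18 ± 0.13 in controls and 0.25 ± 0.14 after SD, and in controls it was -0.12 without the 4 Xist libraries.

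**Figure D3:**
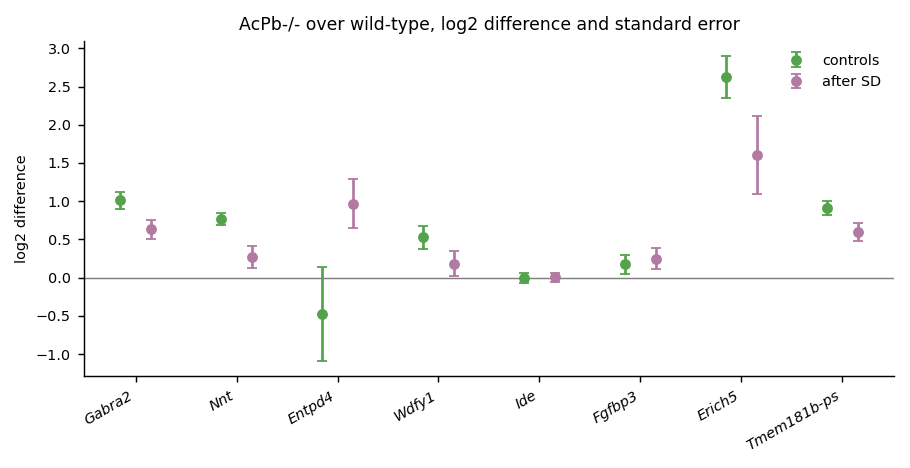
Log2 difference between AcPb-/- and WT mice (points) with its standard error (bars) for the 8 genes, in controls and after SD, 3 libraries per group. Erich5, Gabra2 and Tmem181b-ps lie above 0 in both conditions, Ide lies at 0, and Entpd4 is below 0 in controls and above it after SD.

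Counted over the members, 5 of 8 did not overlap between genotypes in controls (Gabra2, Nnt, Wdfy1, Erich5 and Tmem181b-ps, all higher in AcPb-/- mice), where 14.3% of all genes tested did not overlap and 7.45% were higher without overlap. After SD, 4 of 8 did not (Gabra2, Entpd4, Erich5 and Tmem181b-ps, again all higher), where 11.3% did not and 5.33% were higher. Because the members were chosen with these contrasts known, nothing is read from those shares. In controls, 4 genes passed an adjusted p of 0.05 (limma), 0.0197% of those tested. They were among the genes chosen with that contrast known, so this is background and no test of them, and the count was 0 without WT control 01, 02 or 03 or AcPb-/- control 04, 2 without AcPb-/- control 05 and 168 without AcPb-/- control 03. After SD they made up 0.0145%, 3 genes, none of them a member (2610035D17Rik, Bub1b and Dsp, named after their values were seen), and the count was 0 without WT SD 01, 1 without AcPb-/- SD 03, and 2 to 4 without any other library. The 2 genotype comparisons shared no library, but both contrasts had been used in the choice. Within the control libraries that held Xist, and in the pair that did not (1 library per genotype), Gabra2, Nnt, Erich5 and Tmem181b-ps were higher in AcPb-/- mice. Because these genes did not overlap in controls, any split of those libraries gives that order, and the part of Xist status was not tested.

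Genes within 500 kb of a member were examined next for differences between genotypes that extend past the members. Of 67 tested in controls and 69 after SD, 0 passed an adjusted p of 0.05 by limma or by edgeR, and 10 and 3 had an unadjusted p under 0.05, where 8.53% and 6.13% of all genes did. DESeq2 on the recovered reads called 2 in controls, Hmgcs1 near Nnt and Matn2 near Erich5, and 1 after SD, Ccl28 near Nnt. The median log2 difference of these neighbors was -0.07 in controls and -0.01 after SD, against 0.00063 and 0.0020 over all genes tested.

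The neighbors of Gabra2 in its receptor gene cluster did not follow it. Gabrg1, the gamma1 subunit 114.98 kb away, averaged 982.4 ± 8.85 in WT and 1040 ± 139.2 in AcPb-/- controls (log2 difference 0.07, adjusted p = 0.847), and Gabra4, the alpha4 subunit, had a log2 difference of -0.04 (adjusted p = 0.927). Over 15 GABA-A receptor subunits and gephyrin, 0 passed between genotypes in either condition by limma, and 0 had an unadjusted p under 0.05.

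The nearest neighbor of Tmem181b-ps did separate the genotypes. Dynlt1b, a dynein light chain gene 2.228 kb away, had 33.2 to 46.8 normalized counts over the 6 WT libraries, from 27 to 54 reads. Over the 6 AcPb-/- libraries it had 48.0 to 98.9, from 46 to 104 reads. Low counts limit the precision of both ranges. Sequence sharing was counted for the members only and not for Dynlt1b. Its log2 difference was 0.99 ± 0.24 in controls (limma adjusted p = 0.354) and 0.63 ± 0.20 after SD (adjusted p = 0.677), so neither passed over all genes. Its 3 highest libraries were the ones in which Wdfy1 was high. Near Erich5, Matn2, which encodes an extracellular matrix protein, had a log2 difference of 0.82 ± 0.19 in controls (adjusted p = 0.331) and 0.14 after SD (adjusted p = 0.923). Near Nnt, the chemokine gene Ccl28 had -0.68 ± 0.20 in controls (adjusted p = 0.423) and -1.05 ± 0.24 after SD (adjusted p = 0.328).

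**Figure D4:**
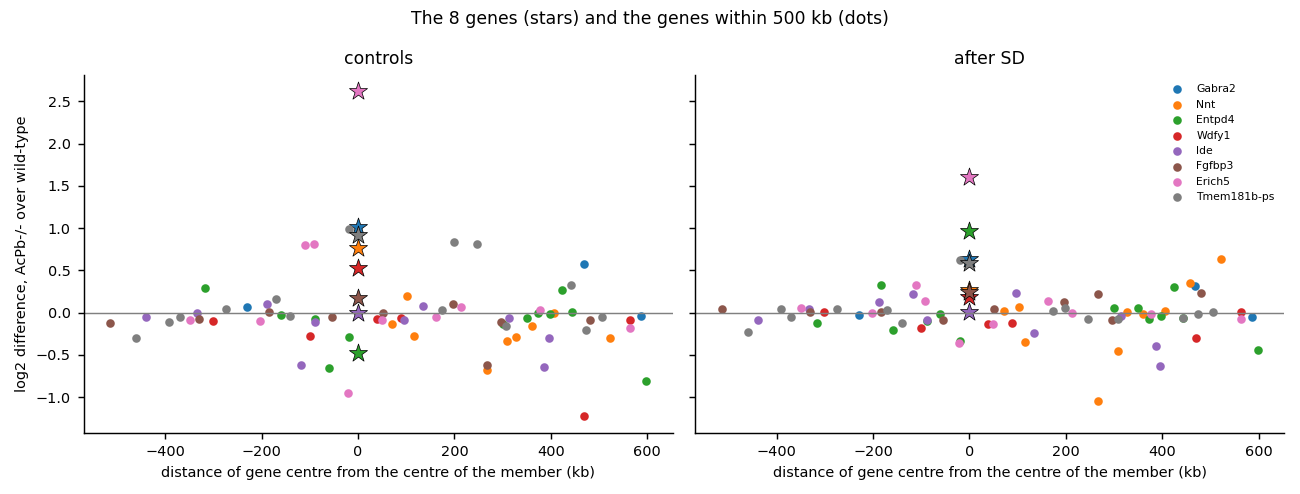
Log2 difference between AcPb-/- and WT mice (vertical axis) for the 8 genes (stars) and the genes within 500 kb of each (dots, in the color of the member), by distance between gene centers in kb, in controls and after SD. Most dots lie near 0; Dynlt1b lies beside its member Tmem181b-ps in both panels.

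Other genes known for sequence differences between C57BL/6 stocks gave no call. Of 5 examined (Cyfip2, Crb1, Nlrp12, Dock2 and Mmrn1), 0 passed an adjusted p of 0.05 by limma between genotypes, with 0 in controls and 1 after SD at an unadjusted p under 0.05. A coding change need not alter the RNA level, so these levels do not type the mice.

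SD was tested within each genotype, a contrast other than the one that chose the members but with the same libraries. The control values known at the choice are also the baseline here. For a member chosen for high AcPb-/- or low WT controls, that favors a fall in AcPb-/- mice and a rise in WT mice. The p-values of members do not allow for this choice, which bears on Nnt and Tmem181b-ps below. In WT mice 3 of 8 members passed an adjusted p of 0.05, against 25.4% of all 20417 genes tested, and in AcPb-/- mice 2 of 8 did, against 27.4% of 20574. Neither count stands far from those backgrounds. The 4 Xist libraries were all controls, so SD and Xist status can be told apart only in part. Every SD library also held more reads on genes than any control, at least 58770286 against at most 41615582. SD and read depth therefore cannot be told apart in these contrasts. Fgfbp3 fell in both genotypes, by 0.71 ± 0.12 on the log2 scale in WT (limma adjusted p = 0.00297) and by 0.64 ± 0.15 in AcPb-/- mice (adjusted p = 0.0139), with no overlap of SD and control libraries in either (40.2% and 42.4% of all genes did not overlap). In AcPb-/- mice dropping control 04 gave an adjusted p of 0.0598, and dropping SD 02 gave 0.0538. With the 4 Xist libraries left out, the fold change was -0.84 in WT (adjusted p = 0.0723) and -0.47 in AcPb-/- mice (adjusted p = 0.160). With a term for Xist both calls held, at -0.69 and -0.61 (adjusted p = 0.0138 and 0.0180).

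Nnt fell with SD in AcPb-/- mice, by 0.52 ± 0.15 (adjusted p = 0.0362), with 3 of 3 SD libraries below all controls. In WT mice its log2 fold change was -0.02 (adjusted p = 0.843), and the difference between the genotypes was not tested. That call was lost on dropping any of 4 libraries, with a fold change of -0.49 for control 03 (adjusted p = 0.0693), -0.46 for control 04 (0.123), -0.33 for SD 02 (0.0790) and -0.55 for SD 04 (0.0728). It was -0.56 with the 4 Xist libraries left out (adjusted p = 0.203), and with a term for Xist the call held, at -0.54 (adjusted p = 0.0327). Over 12 genes of mitochondrial NADPH supply and peroxide defence, 0 rose and 3 fell in AcPb-/- mice and 2 rose and 3 fell in WT. Over all genes tested, 27.4% passed in AcPb-/- mice and 25.4% in WT, in either direction. Only genes that fell are named here, and the 2 that rose in WT are not. Txnrd2, the mitochondrial thioredoxin reductase, fell by 0.53 and 0.34 (adjusted p = 0.00414 and 0.0300), and Prdx5, a peroxiredoxin, fell by 0.40 and 0.33 (adjusted p = 0.00916 and 0.00835). No member of that list passed between genotypes by limma, and 0 had an unadjusted p under 0.05.

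Entpd4 fell with SD in WT mice by 1.79 ± 0.44 (adjusted p = 0.0148), a fall already known when it was chosen, and had a log2 fold change of -0.35 ± 0.54 in AcPb-/- mice (adjusted p = 0.676). Control replicate 02 supplied much of its size, since the fold change without that library was -1.13 (adjusted p = 0.0122). The call was lost without WT SD replicate 01 (-1.76, adjusted p = 0.0543), without the Xist libraries (-1.10, adjusted p = 0.279) and with a term for Xist (-2.08, adjusted p = 0.0599). Among 8 further genes of the Entpd family and Nt5e, Entpd2 fell in both genotypes, by 0.43 in WT and 0.74 in AcPb-/- mice (adjusted p = 0.0236 and 0.00191), and Entpd5 rose in both by 0.32 (adjusted p = 0.00346 and 0.00549).

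Tmem181b-ps rose with SD in WT mice by 0.27 ± 0.07 (adjusted p = 0.0203) and had a log2 fold change of -0.05 in AcPb-/- mice (adjusted p = 0.831). Its WT call was lost without control 01 (0.22, adjusted p = 0.0639), control 02 (0.27, adjusted p = 0.0750) or SD 01 (0.23, adjusted p = 0.0935), and without the Xist libraries (0.37, adjusted p = 0.330). With a term for Xist it held, at 0.44 (adjusted p = 0.0367). Ide was higher in all SD than in all control libraries of both genotypes, by 0.14 ± 0.06 in WT (adjusted p = 0.0912) and 0.15 ± 0.07 in AcPb-/- mice (adjusted p = 0.137), and neither passed. Both passed in a fit of all libraries with a term for Xist, at 0.22 and 0.23 (adjusted p = 0.0216 and 0.0150), and without the Xist libraries the AcPb-/- value was 0.27 (adjusted p = 0.0372). Gabra2 had log2 fold changes of 0.23 (adjusted p = 0.126) and -0.15 (adjusted p = 0.479), Wdfy1 of 0.17 (0.104) and -0.17 (0.626), and Erich5 of 0.25 (0.571) and -0.82 (0.305), in WT and AcPb-/- mice respectively. Erich5 passed in AcPb-/- mice when SD replicate 04, the library with choroid plexus markers, was left out (-1.53, adjusted p = 0.0138).

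**Figure D5:**
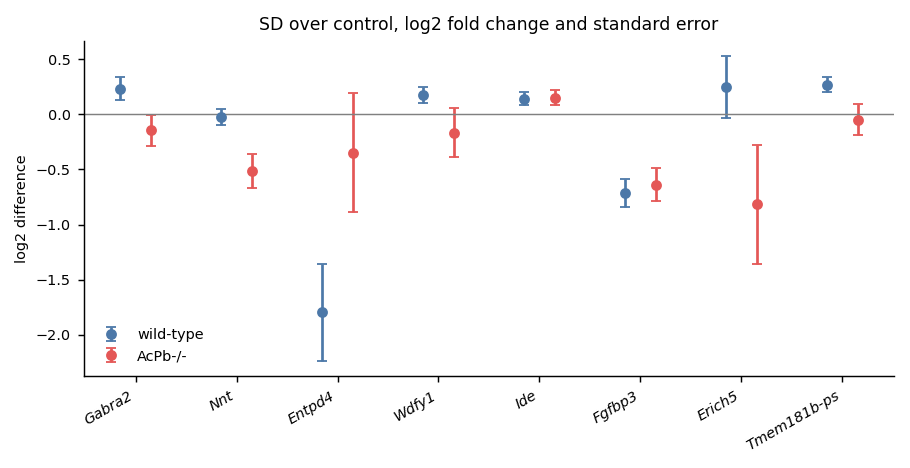
Log2 fold change with SD over control (points) with its standard error (bars) for the 8 genes, in WT and in AcPb-/- mice, 3 libraries per group. Fgfbp3 lies below 0 in both genotypes, Nnt below 0 in AcPb-/- mice and near 0 in WT, and Entpd4 furthest below 0 in WT.

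Other receptor and growth factor genes gave a setting for Gabra2 and Fgfbp3. Among the 15 GABA-A genes, 3 rose and 4 fell with SD in WT and 2 rose and 3 fell in AcPb-/- mice. Over all genes tested, 25.4% passed in WT and 27.4% in AcPb-/- mice, in either direction. The FGF counts below have the same background. Gabrd, the delta subunit of extrasynaptic receptors, fell by 0.53 in WT and 0.69 in AcPb-/- mice (adjusted p = 0.000699 and 0.0117). Gphn, the gephyrin scaffold of inhibitory synapses, rose by 0.35 and 0.40 (adjusted p = 0.00375 and 0.00621). Of 7 FGF ligands, receptors and Fgfbp1, 2 rose and 0 fell in each genotype: Fgf1, a ligand, by 0.35 and 0.41 (adjusted p = 0.0188 and 0.00778), and the receptor gene Fgfr1 by 0.46 and 0.39 (adjusted p = 0.00092 and 0.0033).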

How the data were processed

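The deposited tables held counts that the authors had divided by DESeq2 size factors, a normalized signal per gene, in 5 tables of 6 libraries each. Per the processing notes, reads were aligned to mm10 with HISAT2 2.2.1 and counted with featureCounts. The methods of the study name HTseq and not featureCounts, so the sources differ on the counting tool. The strand setting and annotation were not given in the sources used here. Dividing out the size factors gave whole reads for 100% of 732630 values (tolerance 0.01), and these were scaled again over the 12 libraries by median-of-ratios for the values quoted. Comparisons used limma 3.58.1 in R 4.3.3 on log2(deposited value + 1) within 1 table, for genes with any read, with Benjamini-Hochberg adjustment over all genes tested and an adjusted p under 0.05 called. Alternatives were edgeR 4.0.16 quasi-likelihood and DESeq2 1.42.0 on recovered reads, pseudocounts of 0.1 and 10, a mean of at least 10, centring, 1 fit of 4 groups, a term for Xist, a replicate block and leaving out each library. In data simulated on the WT comparison, with 20064 genes, limma recovered 100 of 100 changes of 2 fold and 66 of 100 of 1.5 fold. The simulation gave every gene a dispersion of 0.01 and changed only genes averaging at least 100 reads. Some members varied far more, with an SD of 86.2% of the mean for Entpd4 in WT controls. For Erich5 in AcPb-/- mice after SD it was 92.8%, and Erich5 averaged 12.6 in WT controls. The recovery does not apply to such members.

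The members and all gene lists were chosen with earlier results of these data known. The named genes were the 8 members, list genes past the threshold, neighbors within 500 kb, and the 2 genes closest in pattern to each member among genes with a mean of at least 100 and a log2 SD of at least 0.5, lowered to 0.3 after seeing the data. Not every listed gene or match in pattern is reported here. A few neighbors and list genes that did not pass were named after their values were seen. Gene positions came from GENCODE M21, which matched 23384 of 24421 gene names. Nothing says that libraries of a group came from separate litters or cages, so p-values measure only the spread between these libraries.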

Additional observations from a re-analysis of the deposited data

How the results depend on the processing

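Over the 6 counts, 70 of 81 alternative values stayed within 1.5 times the main count, or at 0 where it was 0, and 11 moved. The counts of neighbors were 0 in the main fits, so for them staying means only that the value was again 0. Members past the threshold with SD numbered 3 in WT and 2 in AcPb-/- mice. Leaving out 1 library gave 1 to 3 and 0 to 2, and leaving out the 4 Xist libraries, an alternative added after seeing the data that leaves 1 control per genotype and assumes it varies as the SD libraries do, gave 0 and 1. Members not overlapping in controls numbered 5, and 5 to 8 without 1 library. Leaving out the Xist libraries gives no such count, since single values cannot overlap. After SD the members not overlapping numbered 4, and 4 to 6 without 1 library. Leaving out a library can only narrow a group's range, so these counts could not fall and are no check on the result. Over all genes, limma called 4 between genotypes in controls, 0 with a pseudocount of 10 and 0 to 168 without 1 library, 8 in the fit of 4 groups, 7 with a term for Xist and 166 without the Xist libraries, edgeR 8 and DESeq2 104. After SD limma called 3, 0 to 4 without 1 library, 5 in the fit of 4 groups, 13 with a term for Xist, 0 without the Xist libraries and 0 with the block, edgeR 9 and DESeq2 99. Neighbors called between genotypes numbered 0, and 2 in controls and 1 after SD by DESeq2. The replicate block gave 0 members with SD in either genotype with 1 residual degree of freedom. The sample titles give no pairing beyond the number. Between control and SD, deviations of samples of the same number correlated at 0.102 and -0.075 in WT and -0.141 and -0.018 in AcPb-/- mice. Between genotypes they correlated at -0.427 in controls and at 0.216 and 0.231 after SD. Those 2 values after SD lay above all pairs of different number, which ran from -0.299 to 0.104. With fewer than 3 pairs in each comparison, whether same-number samples belong together was not tested. After SD the block gave genotype differences of 0.13 for Nnt, 0.56 for Entpd4 and -0.06 for Wdfy1. The block could not be fitted between genotypes in controls. The SD fold change changed sign, never past the threshold, in the following cases. Nnt in WT ranged from -0.0713 to 0.0268 without 1 library (0.0060 without SD 02), and Entpd4 in AcPb-/- mice from -0.75 to 0.29. Tmem181b-ps in AcPb-/- mice ranged from -0.20 to 0.0349 without 1 library, and was 0.18 without the Xist libraries, 0.12 with a term for Xist and 0.084 with the block. Wdfy1 in AcPb-/- mice was 0.26, 0.0169 and 0.0131 in the same order. Erich5 in WT was -0.0158 without the Xist libraries and -0.0080 with the block. Where a call changed, the cause was not tested.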
